A study of Homo sapiens with 2 samples.

Results

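In TCF3-KO HAL-01 cells, a 5-kb stretch near the 3′ end of RXRA made 40 listed long-range contacts, and only 5 other bins of the genome made more. This bin, chr9:134425001-134430000 in hg38, is called the RXRA anchor bin here. RXRA was chosen by the number of listed interactions of this bin, and the account covers every interaction of the bin together with every interaction of a bin in the RXRA gene or within 10 kb of it, which gave 54 of 49245 interactions in all. The number of contacts of the anchor bin is therefore a description and was not tested.

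HAL-01 is a B cell acute lymphoblastic leukemia line that carries t(17;19), the translocation that fuses TCF3 to HLF. The cells carried Cas9GFP, and the remaining wild-type TCF3 allele had been knocked out with an sgRNA followed by selection for stable KO, so that an E2A (TCF3) antibody pulls down the fusion protein TCF3::HLF. HiChIP joins this immunoprecipitation to proximity ligation, and each contact count is the number of read pairs that link 2 bins. Both samples, the 2 biological replicates of this condition, had been merged before the interactions were called, and no other condition entered the list. No replicate error or test between conditions can therefore be given, and no interval printed below covers the difference between replicates. Intervals of contact counts treat read pairs as independent, although duplicates were kept. Intervals of shares and medians treat bins as independent, which neighboring bins need not be. All are given as description. A list of contacts holds no expression, so the identity of the cells could not be checked against marker genes. The list held contact counts from 7 to 615 with a median of 24, at distances from 50 kb to 3 Mb. Chromosome 9 held 2070 interactions, or 15.0 per Mb against 16.2 per Mb over all chromosomes.

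RXRA encodes retinoid X receptor alpha, a ligand-activated transcription factor of the nuclear receptor family. It binds DNA mostly as a heterodimer, with the retinoic acid, vitamin D, thyroid hormone, PPAR and liver X receptors among its partners, and so sits at the center of several hormone and lipid signaling pathways, including those of myeloid and lymphoid cells. HLF is a PAR-type bZIP factor whose recognition sequence is TTACGTAA or the close form TTATGTAA, and TCF3::HLF binds DNA through the HLF part.

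In the annotation (GENCODE 44) RXRA runs from 134317098 to 134440585 on the plus strand of chromosome 9, and its main transcript (MANE) starts at 134326455. The anchor bin lies 98.5 kb downstream of this start and 10.6 kb upstream of the end of the gene. It contains exon 7 of the 10 exons of the main transcript, at 134429108-134429240, with parts of introns 6 and 7 around it, and no annotated transcript start.

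The anchor bin lacked the motif that most busy bins of the list hold and carried a tandem array of a near match to it. No exact HLF motif, TTACGTAA or TTATGTAA on either strand, was found in its 5000 bases, and adding TTGCGTAA and TTGTGTAA gave none. Intron 6 held the array, with 10 units, from 134428134 to 134428637, which ends 470 bases before exon 7. Every unit contains TTACCTAA, which differs from TTACGTAA by the single substitution G5C, and, read on the opposite strand, from TTATGTAA by T4G, with positions counted from 1 at the 5′ end of the motif. The 10 units are shown in order because they hold all 10 copies of this 8-mer in the bin. They are the hg38 plus strand, 5′ to 3′, with the 8-mer in capitals, and the last unit was cut at the median unit length.
Unit 1 (134428134-134428185): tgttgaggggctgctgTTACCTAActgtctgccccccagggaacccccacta
Unit 2 (134428186-134428235): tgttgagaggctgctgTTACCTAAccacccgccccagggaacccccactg
Unit 3 (134428236-134428287): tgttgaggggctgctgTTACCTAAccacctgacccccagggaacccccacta
Unit 4 (134428288-134428334): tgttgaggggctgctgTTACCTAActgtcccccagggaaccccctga
Unit 5 (134428335-134428386): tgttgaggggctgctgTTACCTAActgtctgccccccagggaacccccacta
Unit 6 (134428387-134428436): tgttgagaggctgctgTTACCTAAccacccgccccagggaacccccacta
Unit 7 (134428437-134428487): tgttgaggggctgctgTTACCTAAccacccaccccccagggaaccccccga
Unit 8 (134428488-134428537): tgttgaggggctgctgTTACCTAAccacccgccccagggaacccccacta
Unit 9 (134428538-134428587): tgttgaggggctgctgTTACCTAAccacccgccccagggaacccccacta
Unit 10 (134428588-134428637): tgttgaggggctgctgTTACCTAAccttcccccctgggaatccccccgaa

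The units were 47 to 52 bases long and shared between 72.0% and 100% of their bases in the 45 pairwise alignments, with a median of 88.5%. The first 24 bases, which end with the 8-mer, were identical in 8 of the 10 units. No other 5-kb bin of the genome held as many copies of TTACCTAA, counted on both strands over 582492 bins of chromosomes 1 to 22 and X that hold sequence. The 8-mer was present at least once in 15.8% of these bins and in 15.7% of all anchor bins, and the second highest number among anchor bins with 10 or more interactions was 3. It was picked out after the array had been seen, a match is a description and not a binding site, and the number of units in HAL-01 itself was not measured. Over the whole bin, 11 sites were within a single substitution of an HLF motif, and the only such site outside the array was a TTTTGTAA at 134429555-134429562 in intron 7 (A3T relative to TTATGTAA).

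Anchor bins with 10 or more interactions usually held an exact HLF motif (66.7% of 1126 bins), against 31.5% of all 53535 anchor bins. Of the 33 bins with 30 or more interactions 6 had no exact motif, and the RXRA anchor bin and a bin at chr2:25990001-25995000 had the most interactions among these, with 40 each. The copies of TTACCTAA in the other 5 numbered from 0 to 3. The RXRA anchor bin was also rich in G+C, at 60.6%, above every other of the 1126 bins, whose median was 40.8%. Among the 33 busiest bins the next highest G+C content was 52.0%. Exact HLF motifs, which are rich in A and T, were less common in G+C-rich anchor bins: 8.30% of the 1808 anchor bins with 55% G+C or more held at least 1 copy. Of these 1808 bins, 19 had 10 or more interactions, and 8 of the 19 held an exact motif (42.1%, Wilson 95% interval 23.1 to 63.7). Sites within a single substitution of a motif, exact copies included, had a median of 8 over the 1126 bins. There were also 11 such sites in the busy bins of SNTG1, RABGAP1L and NRAD1, with 13 in the busiest bin, on chromosome 18. Of the 6 bins with 30 or more interactions and no exact motif, those other than the RXRA anchor bin held 5 to 13. The median number of such sites was 3 in the 19 bins, with 6 as the highest apart from the 11 of the RXRA anchor bin. Of the 1808 bins 3, the RXRA anchor bin among them, held 11 or more. The other G+C-rich bins with 11 or more such sites thus had fewer than 10 interactions. The second highest number of interactions among the 19 bins was 21, but the RXRA anchor bin was chosen for its number. No link between these sites and the number of interactions was tested.

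**Figure D1:**
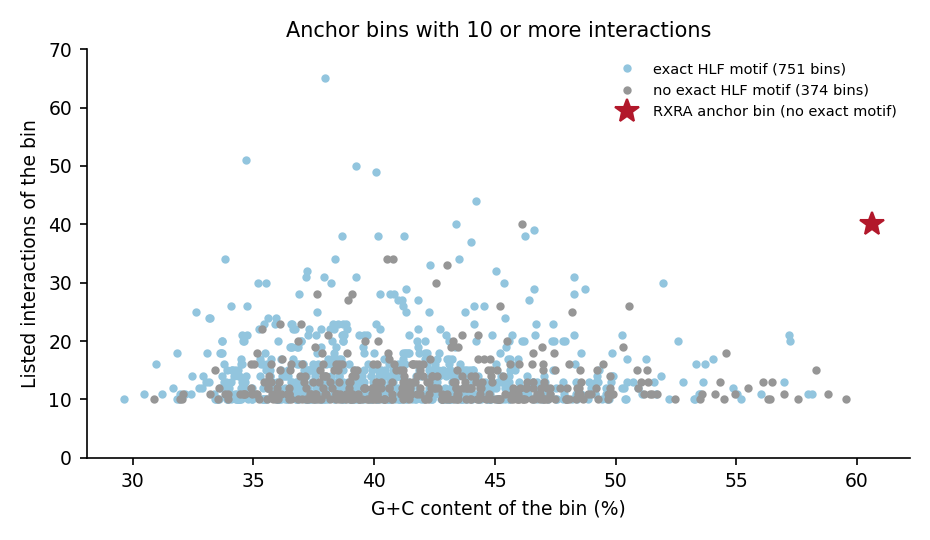
Number of listed interactions (y axis) against the G+C content in percent (x axis) of the 1126 anchor bins with 10 or more interactions, with bins that hold an exact HLF motif in light blue, bins without it in gray and the RXRA anchor bin as a red star. The RXRA anchor bin lies at 60.6% G+C with 40 interactions, to the right of all other bins.

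The bin holds 3 matches to short CTCF cores (CNAGGGGGC, CNAGAGGGC or CNAGGTGGC on either strand, no overlap with the array), all on the minus strand. CTCF is the zinc finger protein that marks many loop anchors, and at least 1 such core occurred in 30.2% of all anchor bins and in 73.3% of those with 55% G+C or more. The 30 bases around each match are given because CTCF cores are often looked for at anchors, in the plus strand of hg38 with the core in capitals.
Core at chr9:134426832-134426861: cttgtcctcgGCCCCCTGGgtccctgccct
Core at chr9:134427347-134427376: gctgcctgctGCCACCTGGcagggagaggg
Core at chr9:134429297-134429326: gctgagttcaGCCACCTTGgccccggtgca

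The sequence of the bin is nearly unique on chromosome 9. Of its 4970 stretches of 31 bases, 54 had an exact copy elsewhere on the chromosome, and no partner bin shared more than 12 of them. Inside the bin, 111 different stretches occurred more than once.

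The 40 contacts summed to 1518 read pairs, the 8th highest sum of any bin, while the bin ranked 6th by number of contacts together with bins on chromosomes 2 and 6. Directly above it were a bin without an annotated gene on chromosome 12 (44), a bin in PHACTR2 on chromosome 6 (49) and a bin in CCDC26 on chromosome 8 (50). Directly below it were a bin in SEC14L1 and SNHG20 (39) and 4 bins with 38 each, in RABGAP1L, NRAD1, LINC02093 and DOCK2. Replicates would be needed to order bins so close in number. The anchor bin alone took part in 31.0% of the 129 interactions that lie within 3 Mb on both sides of it, and the next bin of this window had 10.

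Partner distances ran from 65 kb to 2.91 Mb with a median of 305 kb (order-statistic 95% interval 230 to 650). The whole list had a median of 255 kb, and interactions of bins with 10 or more contacts had a median of 275 kb. Contact counts at the anchor bin ran from 15 to 135 with a median of 29.5 (interval 23 to 35), against 24 in the whole list. They fell with distance (Spearman correlation -0.54 over 40 contacts that share the anchor bin and its read depth, given as a description).

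The strongest contacts pointed into RXRA and the region upstream of it. The largest count, 135 (exact Poisson 95% interval 113 to 160), linked the anchor bin with an intronic bin 80 kb upstream, chr9:134345001-134350000, and was 5.00 times the median of the 874 listed interactions at the same distance, of which it was the 3rd highest. The second count, 111 (91.3 to 134), was with an intronic RXRA bin 90 kb upstream, and it was the highest of 851 interactions at that distance. The third count, 104 (85.0 to 126), reached beyond the gene to an intergenic bin 255 kb upstream, between WDR5 and RXRA, and was the highest of 309. Their intervals overlap, and the order of these 3 counts was not tested. Next came 83 (66.1 to 103) at 155 kb, 68 (52.8 to 86.2) at 120 kb, 62 (47.5 to 79.5) at 135 kb in the noncoding gene LINC02247, and 51 (38.0 to 67.1) at 185 kb. They were followed by 50 (37.1 to 65.9) at 845 kb in FAM163B and 46 (33.7 to 61.4) at 210 kb over an unnamed long noncoding RNA gene. The 5 smallest q-values of the anchor bin belonged to the contacts with counts of 135, 111, 104, 83 and 68.

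**Figure D2:**
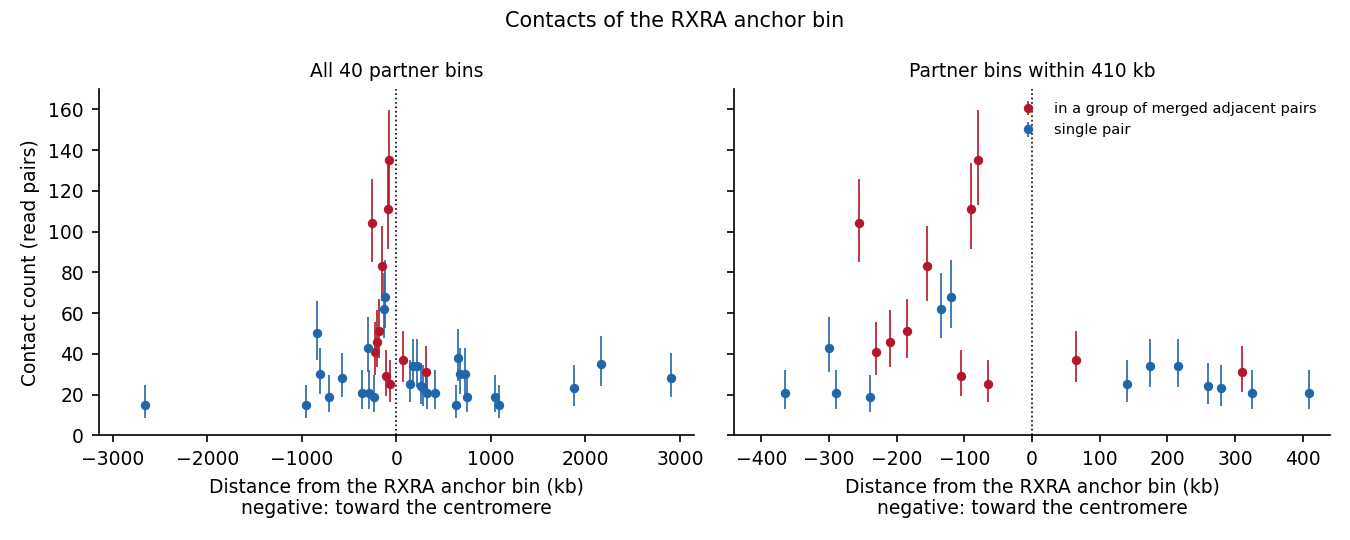
Contact count in read pairs (y axis) of each partner bin against its distance in kb from the RXRA anchor bin (x axis; negative values lie toward the centromere), for all 40 partner bins on the left and for those within 410 kb on the right. Points are single counts of the merged replicates with exact Poisson 95% intervals, red where the pair belongs to a group of merged adjacent pairs; the counts of 135, 111 and 104 all lie on the centromere side.

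Partners were split evenly by number between the sides but not by summed counts. On the side of lower coordinates, toward the centromere and the start of RXRA, lay 21 of 40 partners (52.5%, Wilson 95% interval 37.5 to 67.1), and their counts summed to 1016. The 19 partners toward the telomere summed to 502. The median count was 41 (21 to 62) upstream and 25 (21 to 34) downstream, intervals that overlap. The sides differed in distance too, with a median of 240 kb (135 to 575) upstream and 630 kb (260 to 1045) downstream. Relative to the list at the same distance, the median ratio was 1.74 (0.913 to 2.50) upstream and 1.04 (0.875 to 1.45) downstream. These intervals also overlap. Within 300 kb, 14 upstream contacts with counts of 19 to 135 summed to 838, and 6 downstream contacts with counts of 23 to 37 summed to 177. Over 2 times the median count of the list at their distance was reached by 9 of 40 contacts (22.5%), against 2.89% of all interactions in the list. Of these 9 contacts 8 lay upstream. Over all 40 contacts the median ratio of the count to that of the list at the same distance was 1.29 (0.958 to 1.65). A count below the median of the list at its distance was found for 15 of the 40. These counts come from the bin chosen for its contacts, and nothing is read from the difference to the list.

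**Figure D3:**
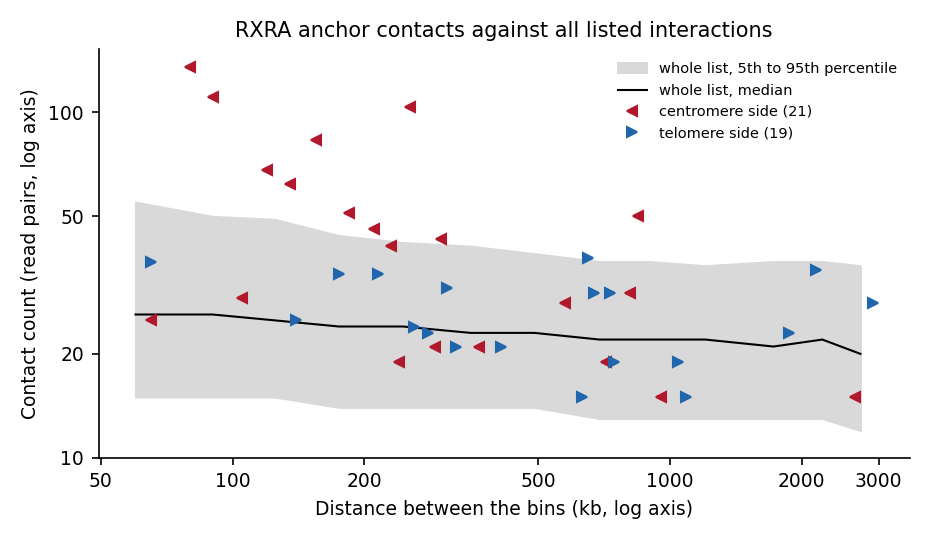
Contact count in read pairs (log axis) against the distance between the bins in kb (log axis) for the 21 partners on the centromere side (red) and the 19 on the telomere side (blue) of the RXRA anchor bin, with the median (line) and the 5th to 95th percentile (gray) of all listed interactions in distance classes. The red points with counts of 51 to 135 at 80 to 255 kb lie above the gray band.

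The caller had merged adjacent significant pairs into groups, and 11 of the 40 contacts belonged to such groups (27.5%), against 7.69% of the list. They formed 8 groups, 6 upstream and 2 downstream. In all 8 the range on the anchor side was the anchor bin alone, and the range on the partner side was 10 to 30 kb wide. The listed fraction of bin pairs in the group was 1 in each, so that 58 distinct partner bins stood behind the 40 listed contacts, with 2262 read pairs in all. The other 29 contacts were single pairs of 5-kb bins. The neighboring bins on both sides of the anchor bin had no listed interaction.

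Upstream, 27 of the 41 bins from 265 kb to 65 kb before the anchor bin were partners. At equal distances of 50 to 300 kb, 29 of 51 bins upstream and 8 of 51 downstream were partners. The group with the largest sum, 289 read pairs, covered chr9:134160001-134180000 and the small nuclear RNA gene RNU6ATAC. The group at chr9:134315001-134340000, with 281 read pairs, covered the start of RXRA, and that at chr9:134345001-134365000, with 242, lay in its introns. The other upstream groups held 199 read pairs over chr9:134265001-134280000, 183 over chr9:134195001-134225000 and 100 over chr9:134235001-134245000, none of them over a protein-coding gene. Downstream, a group of 93 read pairs lay at chr9:134480001-134495000 and another of 50 in COL5A1 at chr9:134730001-134740000.

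The main RXRA start itself lies in the bin chr9:134325001-134330000, which was a partner of the anchor bin only as part of the group with 281 read pairs; the listed contacts of that group were the bins on both sides, with 29 (19.4 to 41.6) at 105 kb and the count of 111 at 90 kb. The 250 bases before this start (chr9:134326205-134326454, plus strand, RefSeq, GRCh38.p14) are shown because the group covers them. GC boxes (GGGCGG on either strand, sharing bases where copies overlap) are in capitals.
RXRA promoter: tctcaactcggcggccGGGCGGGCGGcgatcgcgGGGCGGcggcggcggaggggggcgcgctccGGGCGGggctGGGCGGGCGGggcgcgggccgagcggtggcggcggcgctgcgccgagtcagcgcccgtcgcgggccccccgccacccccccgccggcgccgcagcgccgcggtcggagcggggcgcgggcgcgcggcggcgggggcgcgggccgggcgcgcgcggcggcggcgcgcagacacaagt

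This stretch held 89.2% G+C and 6 GC boxes. At least 1 box was present in 42.6% of 35116 promoter stretches of the same length, and 6 or more in 2.22%.

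Along the whole gene and its flanks, 9 of 30 bins had a listed interaction, and the anchor bin took part in 40 of the 54 interactions (74.1%). Bins less than 50 kb from the anchor bin could not be listed with it. No bin of the 30 held an exact HLF motif, and their median G+C content was 62.1%. Apart from the anchor bin, the bins at 134320001, 134335001, 134345001 and 134360001 each had a single listed contact, which was the contact with the anchor bin. The bin at 134305001, upstream of the gene, had 3 contacts, of which the anchor contact of 68 was the strongest. The others were 25 (16.2 to 36.9) with an intergenic bin at 134225001 and 18 (10.7 to 28.4) across 1.92 Mb with a bin in QSOX2, a sulfhydryl oxidase gene. Intronic bins at 134350001 and 134400001 each had a contact that bypassed the anchor bin, with 13 (6.92 to 22.2) read pairs to RAPGEF1 across 2.69 Mb and 18 (10.7 to 28.4) to COL5A1 across 285 kb.

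The second busiest bin, chr9:134445001-134450000, lay just past the gene end, 20 kb from the anchor bin. It had 10 interactions with counts of 11 to 32 that summed to 209, with 5 on each side, and like the anchor bin it held no exact HLF motif. Only 2 of its 10 partners were also listed for the anchor bin, and 3 fell within the partner ranges of the anchor bin. Its strongest contacts were 32 (21.9 to 45.2) with a bin in COL5A1 at 345 kb and 30 (20.2 to 42.8) across 2505 kb with a bin in LCN12.

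No other bin of chromosome 9 shared more than 2 partner bins with the anchor bin. The bin just past the gene shared the most, and 14 further bins shared 1 each. The first 4 of these in order of position lay at 133495001, at 133645001 in DBH, which encodes dopamine beta-hydroxylase, and at 133660001 and 133670001 in SARDH. No listed interaction joined any 2 of the 58 partner bins with each other. Pairs less than 50 kb apart could not be listed, and interactions were called against peaks. Absence from the list therefore does not show that the partners lack contact. Most listed partners, 33 of 40 (82.5%, 68.1 to 91.3), were in no other interaction, against 78% of all anchor bins with a single interaction.

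Protein-coding starts were reached by part of the contacts. A protein-coding start was taken as the start of any annotated transcript of a protein-coding gene, so it can lie inside the gene. Such a start lay within 10 kb of 18 of 40 partners (45.0%, 30.7 to 60.2), against 37.5% of all anchor bins. In the partners with 55% G+C or more the share was 12 of 23 (52.2%, 33.0 to 70.8), and the 75.4% of all anchor bins that rich in G+C lies above this interval. Counted by gene, 12 of the 135 protein-coding genes with a start within 3 Mb were reached (8.89%), with RXRA itself among them at 4 partners.

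Of the 26 genes of the 9q34 list 7 had a start within 10 kb of a partner. WDR5, a core subunit of histone H3 lysine 4 methyltransferase complexes, was reached by 2 partners, the higher with 43 (31.1 to 57.9) at 300 kb, and the bin over its start had 21 (13.0 to 32.1). FAM163B was reached by 2 partners, the stronger with 50 (37.1 to 65.9) at 845 kb, the highest count of 57 interactions at that distance. This partner lay 1.20 kb from a transcript start inside the gene and not at its outermost start, 133609389. The weaker, with 30 (20.2 to 42.8) at 810 kb, lay 5.61 kb from the outermost start. OLFM1, which encodes the secreted glycoprotein olfactomedin 1, was also reached by 2 partners, with 38 (26.9 to 52.2) at 650 kb and 30 (20.2 to 42.8) at 670 kb. COL5A1, the gene of a type V collagen chain, had 6 partners in its body. Its start bin, 215 kb downstream, had 34 (23.5 to 47.5) read pairs. BRD3, a bromodomain reader of acetylated histones, SARDH, sarcosine dehydrogenase, and LCN1, a lipocalin of tear fluid, had 1 partner each, with counts of 21 (13.0 to 32.1), 19 (11.4 to 29.7) and 15 (8.40 to 24.7). The SARDH partner lay 6.30 kb from a transcript start inside the gene. The counts of BRD3, SARDH, LCN1 and the WDR5 start bin were below the median of the list at their distances. Those of FAM163B, OLFM1, the COL5A1 start bin and the stronger WDR5 partner were above it. VAV2, a guanine nucleotide exchange factor, had a partner in its body, with 28 (18.6 to 40.5) at 575 kb, but none near a start.

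The other 18 genes of the list had no partner at a start or in the body. They include NOTCH1, the receptor gene often mutated in T cell leukemia, and GFI1B, a transcriptional repressor of blood cells. The partner nearest to NOTCH1 lay 39.0 kb from its start, 2.16 Mb downstream of the anchor bin, with 35 (24.4 to 48.7) read pairs, the highest of only 9 listed interactions at that distance. The farthest partner downstream, in EXD3 at 2.91 Mb, had 28 (18.6 to 40.5), also the highest of 9. The farthest upstream, at 2655 kb and 29.9 kb from a start of RAPGEF1, had 15 (8.40 to 24.7), below the median count of the list at its distance. The nearest partners lay 65 kb away on both sides, with 25 (16.2 to 36.9) in RXRA and 37 (26.1 to 51.0) downstream.

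Partners with further contacts of their own numbered 7. The FAM163B partner had 6 others, all with bins within 135 kb of it, the strongest with 64 and 57 read pairs. The COL5A1 partner at 260 kb had 4 others, the strongest with 42. The bin upstream of WDR5 that had 43 read pairs with the anchor bin also had 40 with a bin 1.79 Mb further on, which crosses over the RXRA anchor bin. In all, 9 listed interactions spanned the anchor bin without using it.

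Exact HLF motifs were scarce in the partners as well. They occurred in 2 of 40 (5.00%, 1.38 to 16.5), against 31.5% of all anchor bins, and both partners had low counts of 15 (8.40 to 24.7). The partners had a median G+C content of 57.7% against 41.1% in all anchor bins, and its part in the difference was not tested. None of the 23 partners with 55% G+C or more held an exact motif (upper Wilson limit 14.3%), against 8.30% of all such anchor bins. CTCF cores occurred in 23 of 40 partners (57.5%, 42.2 to 71.5), against 30.2% of all anchor bins. Among partners with 55% G+C or more 15 of 23 held a core (65.2%, 44.9 to 81.2), against 73.3% of all anchor bins that rich in G+C. The sites of both HLF motif partners, in the plus strand of hg38 with the motif in capitals, show the exact form for comparison with the array.
Partner 630 kb downstream, near OLFM1 (chr9:135058532-135058561): ctgagagaaatTTACGTAAgtaaatggaag
Partner 1090 kb downstream, near LCN1 (chr9:135517953-135517982): tatatttctctTTATGTAAcagtctcttca

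RXRA, chosen for its contacts, had more listed interactions than any of the receptor genes it pairs with, but only with the anchor bin included. Of its 54 interactions 40 were those of the chosen bin, and the other 14 were fewer than the 22 of VDR. In the gene and 10 kb around it, RXRA had 54 listed interactions, the 55th highest number among 19970 protein-coding genes, whose median was 1, and 64.5% of which had at least 1. Per 100 kb of gene and flanks RXRA had 37.6 interactions and ranked 192nd. Both ranks include the chosen bin and are given as description. Of the 18 other receptors of the list 15 had at least 1 interaction. VDR, the vitamin D receptor, followed RXRA with 22, or 18.1 per 100 kb, and its busiest bin had 6. NR4A1, an orphan receptor induced by antigen receptor signaling, had 8 (14.1 per 100 kb), THRA, a thyroid hormone receptor, 6 (10.8), and NR1I2, the pregnane X receptor, 5 (8.62). Of the other members of the RXR family, RXRG had 4 interactions and RXRB had none listed. The retinoic acid receptors RARA, RARB and RARG had 2, 4 and 1. PPARG and the bile acid receptor NR1H4 had 4 each, the liver X receptors NR1H3 and NR1H2 had 3 and 1, THRB, PPARA and NR1I3 had 1 each, and PPARD and NR4A2 had none.

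Among 6 genes of retinoid handling 4 had an interaction. ALDH1A2 and ALDH1A1, which encode dehydrogenases that make retinoic acid, had 25 and 13, but both genes are long, and per 100 kb this was 4.43 and 6.51. CRABP1, which encodes a cellular binding protein for retinoic acid, had 2, CYP26B1, a retinoic acid hydroxylase, had 1, and CRABP2 and CYP26A1 had none. In 19 of the 24 receptor and retinoid genes other than RXRA at least 1 interaction was listed, with a median of 2.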

How the data were processed

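HiChIP libraries of 2 biological replicates of TCF3-KO HAL-01 cells were made with an MNase kit and an E2A antibody. The authors trimmed reads with Trim Galore 0.6.6, merged the replicates, aligned them to hg38 with BWA-MEM, left out removal of duplicates, and called interactions with FitHiChIP in 5-kb bins against MACS2 peaks. The FitHiChIP version is not given in the sources used here. The deposited list gives, per pair of bins, a contact count, the summed count of its merged group, the fraction of the group that was significant, and a p-value and q-value; the authors' threshold was q below 0.01. Since duplicates were kept, counts are not independent molecules. The total reads per sample are not in the list.

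From the list, interactions were counted per bin and per gene (GENCODE 44, 10 kb added) with Python 3.11.15, pandas 2.3.3, numpy 2.4.6 and scipy 1.17.1. Counts have exact Poisson, shares Wilson and medians order-statistic 95% intervals. The counting steps were tested on simulated data. The bin, the gene lists and the rule for named genes (both lists, the genes at the 10 strongest partners, the 5 smallest q-values, the nearest and farthest partners, all merged groups, and bins most like the anchor or next to it in rank) were chosen with earlier results of these data known; 1 gene of a list is not reported here. Alternatives varied the q-value, count, distance, bins, flank, motif and reference.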

Additional observations from a re-analysis of the deposited data

How the results depend on the processing

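No paired analysis was possible because the replicates had been merged before interactions were called, and for the same reason no replicate could be left out. Of 49 alternative values of 9 results, 40 stayed within 1.5 times the count or rank, or within the 95% interval of a share or median. At a q-value under 1e-05 the anchor bin had 24 interactions and ranked 17th, the gene with its flanks had 29, and the median contact count of the anchor bin was 37.5. With contact counts of at least 20 the anchor bin ranked 10th. The share of partners with an exact HLF motif was 0% at a q-value under 0.001, at a q-value under 1e-05 and at contact counts of at least 20, since both such partners had 15 read pairs. With a start required inside the partner bin, 12.5% of partners held a protein-coding start. The alternatives with TTACCTAA added to the motif (15.0% of partners) and with starts of RXRA left out (35.0%) were chosen after seeing the data. The main limits are the merged replicates, the retained duplicates, and bins of 5 kb, within which the array, exon 7 and the CTCF cores cannot be told apart as the site of contact.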
